A study of Arabidopsis thaliana with 12 samples.

Results

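The early response of Arabidopsis thaliana seedlings to the natural auxin indole-3-acetic acid (IAA) was described from 6 of the 12 arrays of the series, namely the 3 arrays titled IAA 15 min and the 3 titled mock 15 min, which were paired by the repeat number in their titles. All 28583 probe sets of the value table were included, and a gene name was used only where the array's annotation pairs a probe set with exactly 1 gene, as it does for 16746 of them. Both groups were whole seedlings of wild-type Col-0, labelled as 7 days old, although the series text gives 6 or 7 days. The seedlings were grown in continuous light at 22 °C and shaken in liquid medium for 24 h before treatment. The IAA group received 1 µM IAA dissolved in DMSO, and the mock group received 0.1% DMSO. Each group was repeated 3 times, on 3 different days. The remaining 6 arrays hold the same treatments at 3 h. Standard errors, intervals and p-values come from 1 fit to all 12 arrays. In that fit the effect of the repeat number was shared by both times and was not set for each pair within a time. The titles and sample characteristics give the early time as 15 min, whereas the treatment protocol names 30 min, 1 h and 3 h, so the length of the early treatment carries this uncertainty.

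Auxin is perceived in the nucleus by TIR1/AFB receptors, which form part of a ubiquitin ligase. With auxin bound, they mark Aux/IAA proteins for degradation, and the ARF transcription factors that Aux/IAA proteins hold back can then act on their target genes. Early targets known from seedlings include Aux/IAA genes themselves, SAUR genes, GH3 genes, whose products join IAA to amino acids, and some LBD genes, which encode transcription factors of lateral root formation. A whole seedling mixes root and shoot tissue, so a change in the array signal cannot tell a change in RNA per cell from a change in the number of cells of a type.

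The values are log2 array signals (RMA). A difference of 1 on this scale is a 2-fold difference in signal, and levels of different probe sets are not set against each other. Median signals were 4.72 to 4.79 on the 12 arrays. The arrays numbered 1 stood apart at 15 min. Their interquartile ranges were 3.46 in the IAA group and 3.53 in the mock group, against 3.89 to 3.92 on the other 4 arrays of that time. The IAA array numbered 1 at 3 h was the farthest from the rest, with an interquartile range of 2.88; its correlations with the rest had a median of 0.940. The labelled tissue was represented from both ends of the plant. The root beta-glucosidase PYK10 had 11.21, 11.38 and 11.33 on the IAA arrays and 11.06, 11.32 and 11.31 on the mock arrays, and Rubisco activase (RCA), a leaf chloroplast protein, had 10.52, 10.50 and 10.49 with IAA and 10.41, 10.58 and 10.45 with mock. Neither passed the test at 15 min (changes of 0.08 with SE 0.13 and 0.03 with SE 0.11). Of the root marker list 1 of 10 loci was measured under its own name, and of the shoot marker list 2 of 6; the stomatal lineage factor SPCH, the other shoot marker, changed by 0.02 (SE 0.16).

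At 15 min, 22 probe sets were higher with IAA than with mock, and none was lower. These 22 are 0.077% of the 28583 tested (limma with the repeat number as a block, Benjamini-Hochberg adjusted p under 0.05 over all probe sets). Their changes ran from 0.90 to 2.69 on the log2 scale, or 1.87-fold to 6.43-fold. Of the 22, 9 name a single gene and 13 have no gene in the annotation used here. The named genes are the auxin-conjugating enzymes GH3.1 and GH3.3, the LBD transcription factors LBD16 and LBD29, the HD-ZIP II transcription factor HAT2, and 4 loci without a symbol, AT1G68360, AT5G66580, AT5G41400 and AT3G50340. In all 22 the lowest IAA array lay above the highest mock array, a pattern shown by 640 probe sets, or 2.24% of the table, and its reverse by 506, or 1.77%. Across the 22, the median difference between same-numbered arrays was 1.59, 1.71 and 1.61 in pairs 1, 2 and 3. At an unadjusted p under 0.05, 280 probe sets were higher and 116 lower, together fewer than the 1429 that 5% of the table makes. Without the block, 12 probe sets (0.042%) were called higher and none lower, 11 of the 12 being among the 22, and 46 were lower at an unadjusted p under 0.05. The count depended on the arrays used: it was 0 when any one of the 15 min arrays numbered 2 or 3 was left out, 2 when either array numbered 1 was left out, 48 when all 4 arrays numbered 1 were left out, and 0 when the block was set separately within each time. In the 6 arrays of 15 min alone, with the block, it was 15, of which 11 were among the 22. It was 43 when both 3 h arrays numbered 1 were left out. The p-values rest on the spread left after the block was fitted to the 3 repeats. That spread was pooled over all 12 arrays, those of 3 h included.

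**Figure D1:**
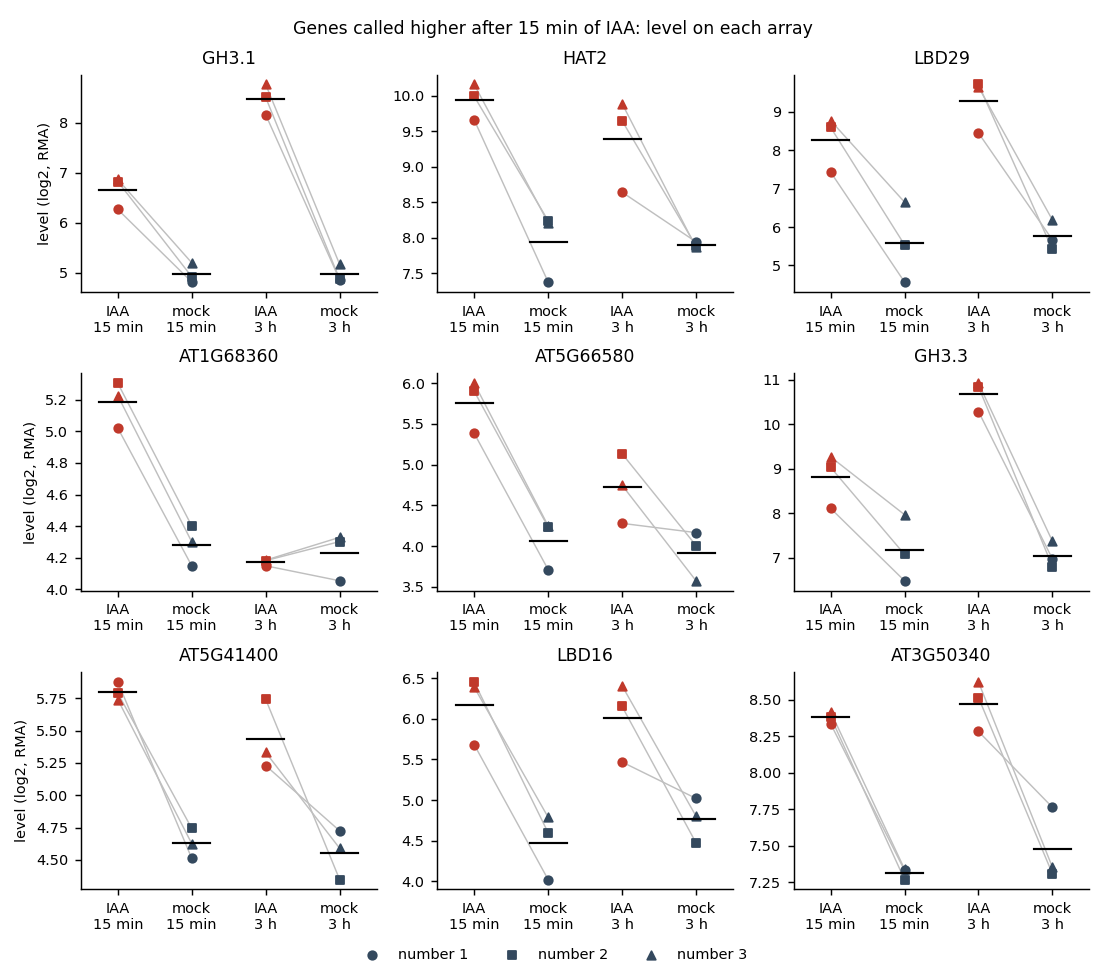
Log2 signal of the 9 called genes on each array, for IAA and mock at 15 min (left) and at 3 h (right). Marker shapes are the repeat numbers, thin lines join IAA and mock arrays of 1 number, and black bars are group means. At 15 min the 3 IAA points of every gene lie above its 3 mock points, and in LBD29 the mock points are spread from 4.57 to 6.65.

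GH3.1 (AT2G14960), an acyl amido synthetase that joins amino acids to IAA, had the smallest adjusted p. Its signal was 6.27, 6.82 and 6.87 on the IAA arrays against 4.82, 4.92 and 5.20 on the mock arrays. The groups were well apart, with means of 6.65 ± 0.33 for IAA and 4.98 ± 0.20 for mock (SD, n = 3 each). GH3.1 rose by 1.67 (SE 0.13, 95% interval 1.39 to 1.96), or 3.19-fold, at a limma adjusted p of 0.00447. It also passed without the block (adjusted p = 0.0265), and over all 21 alternatives its adjusted p ran from 4.49e-06 to 0.667. GH3.1 was the only named gene still called when the IAA array numbered 1 or the mock array numbered 1 was left out.

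GH3.3 (AT2G23170), of the same enzyme family, had 8.11, 9.04 and 9.27 with IAA against 6.49, 7.08 and 7.97 with mock. The highest mock array and the lowest IAA array, which belong to different repeats, were close, and within each repeat IAA was clearly higher. GH3.3 rose by 1.63 (SE 0.22), or 3.09-fold (limma adjusted p = 0.0451). It did not pass without the block (adjusted p = 0.997), and its adjusted p ran from 0.000187 to 1 over the alternatives. Of the 8 GH3 loci on the list used here, 6 were measured, and GH3.1 and GH3.3 were the ones called. WES1, also named GH3.5, had 7.69, 8.03 and 8.31 with IAA and 6.82, 7.42 and 7.70 with mock. Its arrays overlap between the groups, and its change of 0.70 (SE 0.21) did not pass at 15 min (adjusted p = 1), whereas at 3 h WES1 was 2.04 higher with IAA (adjusted p = 0.00321). GH3.9, GH3.17 and GH3.4 gave changes of 0.12, 0.01 and -0.05. The signal of GH3.4 was near the low end of the arrays' range, with means of 2.02 for IAA and 2.07 for mock.

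LBD29 (AT3G58190) and LBD16 (AT2G42430) encode transcription factors that act in the first steps of lateral root formation. LBD29 had 7.43, 8.60 and 8.78 with IAA against 4.57, 5.54 and 6.65 with mock. Its mock arrays varied more than those of any other called gene with a name, with an SD of 1.04, yet the same-numbered IAA arrays kept their distance. LBD29 rose by 2.69 (SE 0.30), or 6.43-fold, the largest change among the 22 (limma adjusted p = 0.017). LBD16 had 5.68, 6.45 and 6.39 with IAA against 4.02, 4.60 and 4.79 with mock. It rose by 1.70 (SE 0.24), or 3.26-fold (limma adjusted p = 0.0451). Neither passed without the block, at adjusted p = 0.366 for LBD29 and 0.17 for LBD16. Over the alternatives the adjusted p ran from 4.46e-05 to 1 for LBD29 and from 1.19e-05 to 1 for LBD16. Of 13 loci on the list of early lateral root genes, 3 were measured. The third, the AP2-type transcription factor gene PUCHI, had 2.02, 2.15 and 2.22 with IAA and 2.31, 1.97 and 2.04 with mock, near the low end of the arrays' range. Its change was 0.02 (SE 0.13) at 15 min, and at 3 h it was 0.86 higher with IAA (adjusted p = 0.0184).

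HAT2 (AT5G47370), a homeodomain-leucine zipper protein of class II, was the only measured locus of the 10 on that list. It had 9.66, 9.99 and 10.16 with IAA against 7.38, 8.24 and 8.21 with mock. All IAA arrays were more than 1 unit above every mock array. HAT2 rose by 1.99 (SE 0.22), or 3.98-fold (limma adjusted p = 0.017). It missed the threshold without the block (adjusted p = 0.0802), and over the alternatives its adjusted p ran from 4.49e-06 to 0.67.

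The 4 loci without a symbol are given by their values alone. AT1G68360 had 5.02, 5.30 and 5.23 with IAA against 4.15, 4.40 and 4.3 with mock, and rose by 0.90 (SE 0.11, limma adjusted p = 0.0233). AT5G66580 had 5.39, 5.90 and 6.00 with IAA against 3.71, 4.24 and 4.25 with mock, and rose by 1.70 (SE 0.22, limma adjusted p = 0.0402). Neither passed without the block, at adjusted p = 0.0627 for AT1G68360 and 0.0668 for AT5G66580. Over the alternatives the adjusted p ran from 4.65e-05 to 1 for AT1G68360 and from 3.2e-05 to 1 for AT5G66580. AT5G41400 and AT3G50340 also passed without the block, at adjusted p = 0.0466 and 0.0485, and over the alternatives theirs ran from 0.000514 to 1 and from 1.9e-05 to 1. AT5G41400 had 5.88, 5.79 and 5.74 with IAA against 4.51, 4.74 and 4.63 with mock, and rose by 1.17 (SE 0.16, limma adjusted p = 0.0451). AT3G50340 had the tightest groups of the 9, at 8.34, 8.39 and 8.42 with IAA against 7.33, 7.27 and 7.34 with mock, which gives means of 8.38 ± 0.04 and 7.32 ± 0.04 (SD, n = 3 each). It rose by 1.07 (SE 0.15), or 2.09-fold (limma adjusted p = 0.0451).

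The 13 called probe sets without a gene rose by 0.97 to 2.54, or 1.95-fold to 5.81-fold, with limma adjusted p from 0.017 to 0.0462. They are named here by probe set number. Probe set 13373702 changed most, with 6.29, 6.31 and 6.46 on the IAA arrays against 3.79, 4.0 and 3.66 on the mock arrays, a rise of 2.54 (SE 0.28). Probe set 13411796 had 4.90, 4.94 and 5.23 with IAA against 2.64, 2.95 and 2.39 with mock, a rise of 2.36 (SE 0.25). In both, the groups were far apart. The mock signals of 13411796 were low, the lower quartile of all signals being 2.70 to 3.03 on the arrays of that time. Probe set 13452765 had 9.11, 9.04 and 9.05 with IAA against 7.38, 7.84 and 7.75 with mock, a rise of 1.41 (SE 0.14). Without the block, 8 of these 13 passed, beside 3 of the 9 named genes. Just outside the threshold lay probe sets 13373706, higher by 1.67 with an adjusted p of 0.050, and 13444288, higher by 1.68 with an adjusted p of 0.0974.

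**Figure D2:**
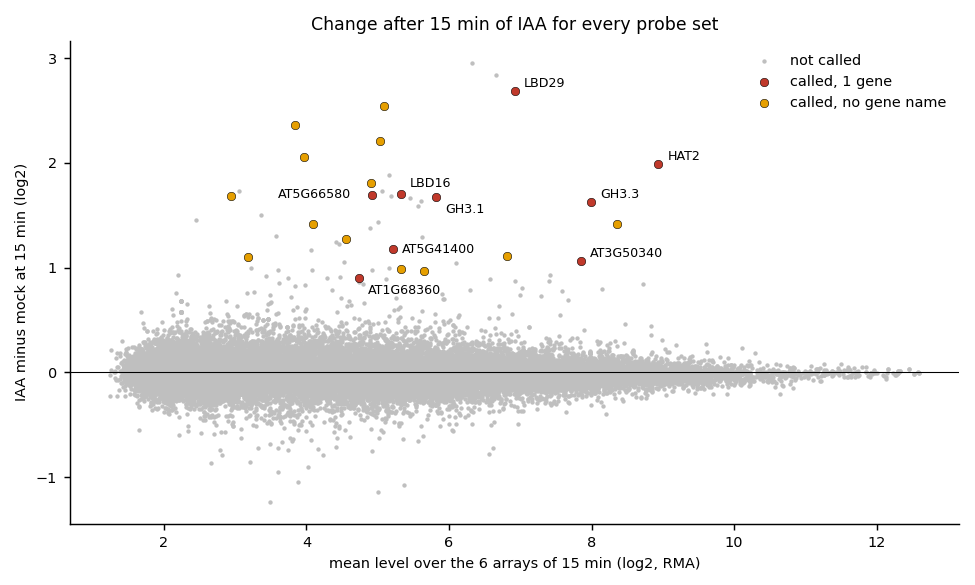
Change at 15 min, IAA minus mock (log2), against the mean log2 signal of all 28583 probe sets, with the 22 called probe sets marked. All 22 lie above 0, at 0.90 to 2.69, and no probe set below 0 was called.

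The named genes next in order of p, with all 3 pairs in 1 direction, did not pass and are given as values. AT2G18010, which RefSeq also lists as SAUR10, a member of the small auxin-up RNA family, had 4.44, 4.0 and 4.23 with IAA and 3.23, 3.00 and 2.53 with mock. The groups do not overlap, and the difference was 1.31 (SE 0.22, adjusted p = 0.169). At 3 h AT2G18010 was 1.23 higher with IAA (adjusted p = 0.0425). The Aux/IAA gene IAA29, which encodes a repressor of auxin signalling, had 3.80, 3.39 and 3.97 with IAA and 3.08, 2.49 and 2.60 with mock, a difference of 1.00 (SE 0.24, adjusted p = 1). At 3 h IAA29 was 2.73 higher with IAA (adjusted p = 0.00125). The other positive differences among these genes were 0.75 for AT4G14819 (SE 0.14), 0.71 for AT4G23515 (SE 0.15), 0.63 for AT1G67900 (SE 0.13), 0.52 for AT1G78070 (SE 0.11), 0.51 for AT5G22930 (SE 0.11) and 0.85 for AT5G12050 (SE 0.20).

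On the lower side the smallest adjusted p of any probe set was 0.713, for AT4G19770, which had 2.17, 2.64 and 2.45 with IAA and 2.70, 3.86 and 3.08 with mock, a difference of -0.79 (SE 0.17). AT2G04680 had 3.24, 3.69 and 3.14 with IAA and 4.17, 4.86 and 4.17 with mock, a difference of -1.04 (SE 0.25, adjusted p = 1). AT5G02360 had 4.23, 4.66 and 4.72 with IAA and 5.39, 5.16 and 5.32 with mock, a difference of -0.75 (SE 0.19, adjusted p = 1). In all 3 genes the groups did not overlap, as in 1.77% of all probe sets with IAA lower. AT2G04680 was also 1.33 lower at 3 h, where it passed (adjusted p = 0.0489).

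The gene groups of auxin biology were chosen with earlier results of these data known, and the annotation named only some of their loci: 17 of the 23 groups had a measured member. Totals of loci are those of the lists used here, which need not hold a whole family. Over all probe sets the median change was -0.00, with 14104 of 28583 positive and 0.077% called higher, and each group is given beside this. Of the Aux/IAA repressors, 8 of 29 loci were measured, with a median change of 0.08, 5 of 8 positive and none called. IAA15, IAA20, IAA30, IAA31 and IAA33 were dim, with group means of 1.63 to 2.43 at 15 min. The lower quartile of all signals was 2.70 to 3.03 on those arrays, so the lack of a call there does not show a lack of response. IAA30 changed by 0.30 (SE 0.10), IAA18 by -0.15 (SE 0.30) and IAA31 by 0.02 (SE 0.12). Of the SAUR family 5 of 80 loci were measured, none was called, and their median change was -0.05. Mock means of these 5 were 2.17 to 3.18, near or under that quartile. No measured locus was available for the auxin receptors and their ligase, the ARF factors, ethylene synthesis, the cellulose synthases, the cell cycle or the proteasome, which are not analysed here.

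Among the measured genes of auxin synthesis, transport and of oxidation or conjugation other than by GH3 enzymes, none was called at 15 min. Over all probe sets 0.077% were called higher, so the absence of calls does not set these few genes apart. Of the synthesis genes 4 of 14 were measured. These 4 encode YUCCA enzymes, flavin monooxygenases that make IAA, with changes of -0.09 for YUC2, 0.10 for YUC4, -0.15 for YUC6 and 0.05 for YUC11. YUC6 was 0.97 lower with IAA at 3 h (adjusted p = 0.0108). Of the auxin oxidation and conjugation genes other than GH3, 4 of 6 were measured, with a median change of -0.11. UGT84B1, with the smallest p of these, changed by -0.19 (SE 0.18) at a low signal, with means of 1.64 for IAA and 1.83 for mock. The 1 transport gene measured of 18, WAG2, which encodes a kinase that acts on PIN auxin carriers, differed by 0.48 (SE 0.14, unadjusted 95% interval 0.16 to 0.80, adjusted p = 1), and its groups did not overlap.

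Among cell wall proteins that loosen the wall during growth no change was called at 15 min, 0.077% of all probe sets being called higher. Of 16 listed expansin loci 8 were measured, with a median of -0.04. Their changes lay between -0.24 and 0.44, the highest being EXPA8 (SE 0.27). EXPB1 differed by -0.20 (SE 0.18) at 15 min and was 1.49 lower with IAA at 3 h (adjusted p = 0.00572). Of the XTH family, xyloglucan-modifying enzymes, 10 of 33 loci were measured, with a median of -0.03 and a range of -0.23 to 0.19. XTH21, with the smallest p of these, differed by -0.21 (SE 0.14) at 15 min. At 3 h XTH21 was 1.13 lower with IAA (limma adjusted p = 0.00742). The cytokinin response regulators ARR15 and ARR16 changed by 0.22 and 0.03, and the stress-related zinc finger gene STZ by 0.33. These 3 genes varied widely between repeats, with standard errors of 0.45 to 0.48.

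**Figure D3:**
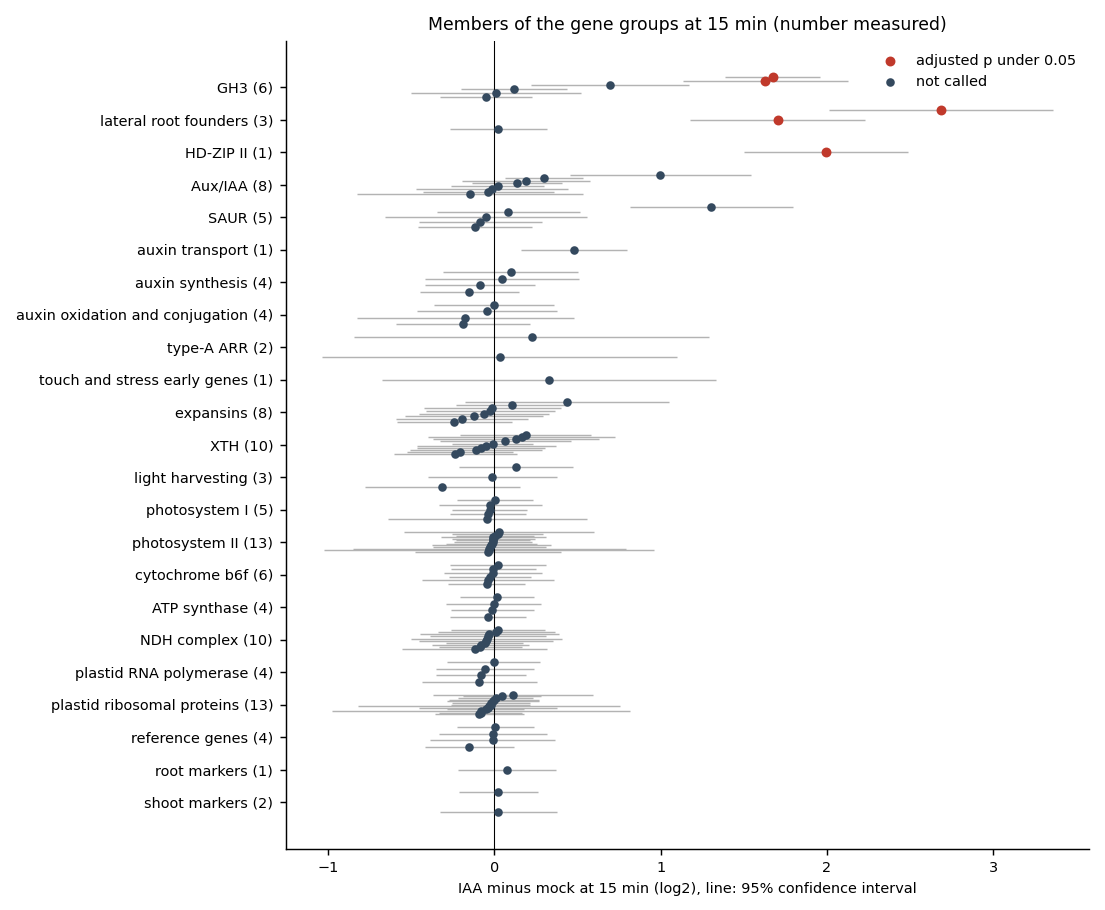
Change at 15 min, IAA minus mock (log2), of the measured members of each gene group, 1 point per locus with its 95% interval as a line and called members in red. The number measured stands beside each group name. The called points are GH3.1, GH3.3, LBD16, LBD29 and HAT2, while the plastid groups lie between -0.12 and 0.11.

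Genes that stayed flat were described by their 95% interval rather than by a missed threshold. The interval lay within -0.5 to 0.5 for 16635 probe sets, 58.2% of the table, among them 9591 single-gene probe sets after merging by locus tag. This count was 10498 without the block and 9239 to 9578 when a 15 min array numbered 2 or 3 was left out. A stricter limit of -0.25 to 0.25 was met by 185 probe sets, or 0.647%, among them 76 single-gene probe sets after the same merging. The lowest standard error of any probe set was 0.10 and the median was 0.16. This stricter count, and the plastid and single-gene counts taken from it, rest on the spread estimated from all 12 arrays: it was 0 when any one of the 15 min arrays was left out, 13 without the block, and 5025 in the 6 arrays of 15 min with the block. The glycolytic enzyme GAPC2, often used as a reference gene, had 10.70, 10.75 and 10.72 with IAA and 10.77, 10.74 and 10.64 with mock, a change of 0.01 with an interval of -0.22 to 0.24. The reference genes AT4G34270 and AT2G28390 each changed by -0.01, and the ubiquitin-conjugating enzyme gene PEX4, also named UBC21, by -0.15 (SE 0.12).

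The plastid genome supplied the largest expressed set that could be described by function. Its genes encode core parts of photosynthesis, of the plastid ribosome and of the plastid RNA polymerase. Of 63 plastid loci, 54 (85.7%) had an interval within -0.5 to 0.5 and 9 (14.3%) within -0.25 to 0.25. None was called at either time. Of all probe sets 0.077% were called higher at 15 min, and 0.336% higher and 0.339% lower at 3 h. The changes of the 63 ran from -0.12 to 0.11, and 14 were positive. Plastid transcripts of 1 array share its extraction and hybridisation and are not independent of each other.

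Within the photosynthetic complexes, photosystem II was represented by 13 genes with changes from -0.04 to 0.03. Its reaction centre gene psbA had 12.22, 12.23 and 12.24 with IAA and 12.21, 12.24 and 12.26 with mock. Photosystem I gave 5 genes from -0.04 to 0.01, the cytochrome b6f complex 6 genes from -0.04 to 0.02, and the ATP synthase 4 genes from -0.04 to 0.02. In the ATP synthase, atpA had 11.77, 11.73 and 11.73 with IAA and 11.72, 11.73 and 11.74 with mock, the narrowest interval among all named genes. The 10 genes of the NDH complex, which carries cyclic electron flow, ranged from -0.12 to 0.02. The Rubisco large subunit gene rbcL had 12.09, 11.92 and 11.93 with IAA and 12.05, 11.95 and 11.88 with mock, a change of 0.02.

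The changes of the plastid expression machinery were small, with 13 ribosomal protein genes at a median of -0.02 and 4 RNA polymerase genes between -0.09 and -0.00. The interval lay within 0.5 of no change for 10 of the 13 ribosomal protein genes and for the 4 RNA polymerase genes. It lay within 0.25 for 1 of the 13 and 0 of the 4. Of nuclear ribosomal protein genes, 1 was measured (AT1G77750, 0.01 with SE 0.20). The plastid ribosomal protein genes rpl32 (interval -0.82 to 0.76), rps16 (-0.37 to 0.60) and rpl33 (-0.98 to 0.82) went beyond the wider limit. The ribosomal protein gene rpl33 had 10.12, 8.33 and 8.19 with IAA and 10.14, 8.34 and 8.39 with mock. Its arrays differ by repeat in both groups alike, since the arrays numbered 1 are high with either treatment, and the SE of its change was 0.40. Nuclear light-harvesting genes were represented by 3 of 16 loci, none of them called, where 0.077% of all probe sets were called higher. LHCB4.1 changed by 0.13 (SE 0.15), LHCB4.2 by -0.01 (SE 0.17) and LHCB4.3 by -0.31 (SE 0.21).

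Among probe sets sharing a symbol prefix, 17 families had at least 14 measured members, 453 probe sets in all, and family medians ran from -0.05 to 0.10. Probe sets without a locus tag were not merged by gene, and the NAD family holds more than 1 probe set of nad1. The prefix GH, which takes in the GH3 genes and glycosyl hydrolases, was the 1 family with called members, GH3.1 and GH3.3, among 24 probe sets. In the other 16 families no member was called and changes ran from -0.43 to 0.64. Over all probe sets 0.077% were called higher, so the absence of calls does not set these families apart. The UDP-glycosyltransferase UGT genes (51 probe sets) had a median of -0.04. The bZIP transcription factors (17 probe sets) had the median of 0.10. BZIP34 differed most in that family, with 6.95, 7.06 and 7.04 with IAA and 6.81, 6.24 and 6.10 with mock, a difference of 0.64 (SE 0.18) that did not pass (adjusted p = 1).

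The same genes were read at 3 h to see how the early rises stood later. At 3 h, 96 probe sets were higher and 97 lower with IAA, 0.336% and 0.339% of the table. Of the 22 early probe sets, 13 were also called higher at 3 h and none lower. The 2 times have separate IAA and mock arrays, but they share the numbering of the repeats and 1 estimate of the spread. The change at 3 h was larger in 7 of the 22 and smaller in 15. The 22 were selected on their 15 min changes in these same data, so these counts do not show a fading response. The median difference of the 22 at 3 h was 0.77 in pair 1, which holds the IAA array that stood apart, and 1.54 and 1.59 in pairs 2 and 3.

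Among the 22, GH3.1 alone had a difference between the times that passed the test, and that call depended on the block and on single arrays. It had 8.16, 8.51 and 8.77 on the IAA arrays and 4.86, 4.87 and 5.17 on the mock arrays at 3 h, so that the mock level was near that at 15 min and the IAA level higher. Its change was 3.51 at 3 h and 1.67 at 15 min, a difference of 1.84 (SE 0.18, interaction term in limma, adjusted p = 0.0115; 0.0105% of the table was called in this direction). It did not pass without the block (adjusted p = 0.151), with a block within each time (0.0661), or without mock array 1, 2 or 3 or IAA array 3 of 15 min (0.0604 to 0.106), and over its 19 alternatives the adjusted p ran from 3.45e-05 to 0.903. GH3.3 also had a larger change at 3 h, 3.64, but the difference of 2.01 from 15 min did not pass (adjusted p = 0.111, unadjusted 95% interval 1.3 to 2.71). For LBD29 the difference was 0.83 (interval -0.12 to 1.78), for HAT2 -0.50 (interval -1.19 to 0.20) and for LBD16 -0.46 (interval -1.21 to 0.28).

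AT1G68360 was called at 15 min and was near 0 at 3 h. At 3 h it had 4.15, 4.18 and 4.19 with IAA and 4.05, 4.3 and 4.33 with mock, a change of -0.06 (SE 0.11, adjusted p = 0.79). It was the 1 probe set of the 22 whose 3 h interval lay within -0.5 to 0.5. The difference between its times was -0.96 (unadjusted interval -1.30 to -0.62) and did not pass after adjustment (adjusted p = 0.111). Probe set 13388860 had 6.33, 5.97 and 6.10 with IAA against 5.23, 5.15 and 5.12 with mock at 15 min, and a change of -0.30 at 3 h. Its difference between times, -1.26, also missed the threshold (adjusted p = 0.0955). AT3G50340 stood at the other end, with changes of 1.07 at 15 min and 1.00 at 3 h and a difference of -0.07 (interval -0.54 to 0.40).

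**Figure D4:**
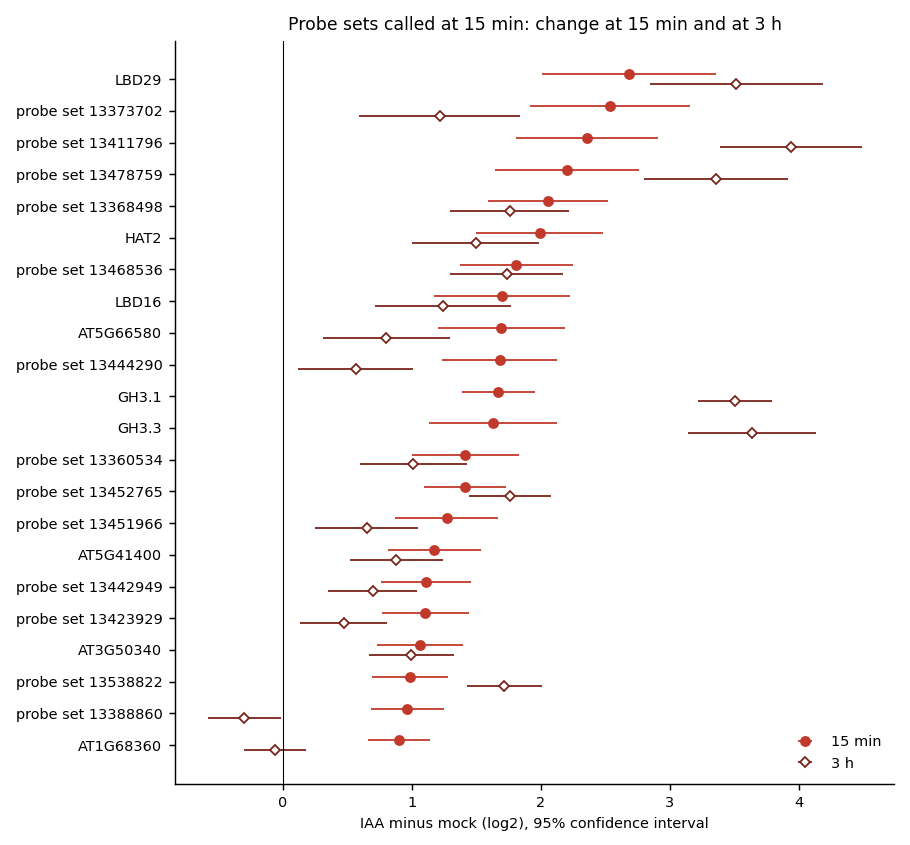
Change with IAA against mock (log2) at 15 min and at 3 h for the 22 probe sets called at 15 min, with 95% intervals as lines. Filled points are 15 min and open points 3 h. GH3.1, GH3.3 and LBD29 have larger changes at 3 h, at 3.51, 3.64 and 3.52, and AT1G68360 lies at -0.06.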

How the data were processed

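Biotin-labelled RNA (100 ng per array) from whole seedlings was measured on strips of the Affymetrix Gene 1.1 ST type. The authors deposited RMA values on the log2 scale; the submitters' processing notes name oligo and state no version. RMA corrects for background and combines several probes into 1 value, which compresses low levels. The arrays' number limits the precision. No coordinates or sequences are printed, the genome build being not given in the sources used here.

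Of 28583 probe sets, 16746 had 1 gene, 758 several and 11079 none. Symbols were updated through a RefSeq gene table (TAIR10.1), by gene number for 16601 and locus tag for 96, and 49 kept the platform's name. A locus with several rows (162 loci) was represented by its brightest. Rows without a locus tag were not merged, so a gene such as nad1 could keep more than 1 row.

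The test was limma 3.58.1 (R 4.3.3; functions lmFit, contrasts.fit and eBayes), with 4 groups of 3 arrays in 1 fit, the repeat number as a block, no filter and Benjamini-Hochberg adjustment over all probe sets. Residual degrees of freedom were 6. The numbers come from the titles, and the series text says that repeats were done on different days. Once group means were subtracted, IAA and mock arrays of 1 number correlated at 0.805, 0.676 and 0.659 at 15 min and at 0.150, 0.133 and 0.201 at 3 h. Intervals are unadjusted 95% intervals. The fit was also run on simulated data, with the spread taken from arrays other than those numbered 1 and a repeat effect shared by both times. That setting lacks the arrays numbered 1 that stood apart, so it does not test the calls given here.

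Among single-gene rows, the text names every called gene, then the genes next in order of p whose 3 pairs share a sign (20 in all). From the lists it names the called members, the member with the smallest p and the flattest. This last rule was not followed in every list. Other list members were named for context after their values were seen. Members and lists were chosen with earlier results of these data known. The interval of 0.5, plastid groups, symbol families and 2 of the alternatives were added after seeing the data. The planned description of promoter motifs was not run. Tables were made with pandas 2.3.3 (Python 3.11.15), figures with matplotlib 3.10.9.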

Additional observations from a re-analysis of the deposited data

Results flagged for a closer look

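For 6 probe sets the change with IAA at 3 h differed from that at 15 min, by the interaction term in limma (3 in each direction, 0.0105% of the table each). GH3.1 is the one of them that was called at 15 min, and its difference was 1.84 (adjusted p = 0.0115). That difference did not pass without the block (adjusted p = 0.151) or with a block within each time (0.0661), the range over 19 alternatives being 3.45e-05 to 0.903. Probe set 13456003, which has no gene here, changed by 3.52 at 3 h and by 0.42 at 15 min, a difference of 3.1 (adjusted p = 0.00354). Probe set 13405370 changed by 2.35 at 3 h and by 0.06 at 15 min, a difference of 2.29 (adjusted p = 0.0156).

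The other 3 fell at 3 h. AT3G01190 had 5.0, 5.38 and 5.06 with IAA against 8.30, 7.93 and 7.53 with mock at 3 h. Its change was -2.77 at 3 h and 0.09 (SE 0.19) at 15 min, a difference of -2.86 (adjusted p = 0.0095). AT3G01260 had 3.36, 3.46 and 3.53 with IAA against 5.48, 5.42 and 5.34 with mock at 3 h. Its change was -1.96 at 3 h and 0.11 (SE 0.12) at 15 min, a difference of -2.07 (adjusted p = 0.00354). Probe set 13463093 changed by -1.81 at 3 h and by 0.10 at 15 min, a difference of -1.91 (adjusted p = 0.0163). Leaving out 1 array of 15 min ended the call in at least 1 case for GH3.1, AT3G01190, 13405370 and 13463093, with adjusted p up to 0.106, 0.0799, 0.123 and 0.134 in that order, and in no case for 13456003 and AT3G01260. AT3G01260 did not pass after quantile normalization (adjusted p = 0.057). None of the 6 passed without repeat 2 or without repeat 3.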

How the results depend on the processing

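Under the 21 alternatives, no result reversed, and all 22 changes stayed positive wherever the probe set was tested. The number called higher (22) depended on the setting. It was 12 with no replicate block, 15 and 3 in the 6 arrays of 15 min with and without the block, and 0 with a block within each time. It was 4 among probe sets with a gene name and 4 among those with exactly 1 gene, 18 after quantile normalization, 22 with the filter on dim probe sets, 21 with a trended prior and 108 with array weights, which also called 11 lower. Leaving out single arrays or a repeat gave 0 to 48 higher (48 without every array numbered 1) and 0 to 1 lower, and leaving out both 3 h arrays numbered 1 gave 43. The cause was not tested.

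The 6 differences between times became 5 with no replicate block, 3 among named and 3 among single-gene probe sets, 13 after quantile normalization, 338 with array weights, 2 to 33 without single arrays (33 without the IAA array numbered 1 at 3 h), 0 to 83 without a repeat, and 124 without both 3 h arrays numbered 1.

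The 185 probe sets within 0.25 became 13 with no replicate block, 5025 and 0 in the 6 arrays with and without the block, 59 with a block within each time, 64 among named and 48 among single-gene probe sets, which are fewer, 841 after quantile normalization, 646 with a trended prior, 10188 with array weights, 0 to 1650 without single arrays, 0 to 6144 without a repeat, and 8353 without both 3 h arrays numbered 1. The 16635 within 0.5 became 10498 with no replicate block, 10165 among named and 9704 among single-gene probe sets, 26512 with array weights, 9239 to 20889 without single arrays, 1615, 1754 or 24930 without a repeat, and 25440 without both 3 h arrays numbered 1.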

Other observations

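Several probe sets had larger differences at 15 min than most of the called ones and did not pass. Probe set 13502865 had 7.39, 8.03 and 7.98 with IAA and 3.87, 5.57 and 5.09 with mock, a difference of 2.96 (SE 0.54, adjusted p = 0.29), larger than that of any called probe set. Probe set 13502841 had 6.91, 8.56 and 8.77 with IAA and 4.44, 5.79 and 5.50 with mock, a difference of 2.84 (SE 0.74, adjusted p = 1). In both, every IAA array lies above every mock array.

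The lowest named gene, the peroxidase gene PRX52, had 5.24, 4.54 and 4.71 with IAA and 5.17, 4.75 and 7.80 with mock. Its difference was -1.07 (SE 0.48, adjusted p = 1). The mock array numbered 3 was high, and the other 5 arrays lay between 4.54 and 5.24.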
